A study of Mus musculus with 3 samples.

Results

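The importins alpha of mouse testis and their partner importin beta were followed through spermatogenesis in single-cell RNA libraries: Kpna1, Kpna2, Kpna3, Kpna4 and Kpna6, which encode importins alpha, and Kpnb1, which encodes importin beta. These 6 genes, of 32285 in the count tables, were taken by their gene symbols. They were chosen because earlier results on the same libraries had shown a switch of paralogs along the germ cell stages and a fall of Kpna1 in spermatids of the knockout library. The stage patterns and the fall of Kpna1 are therefore descriptions and were not tested.

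The libraries were made from dissociated testis of adult C57BL/6N mice with the 10x Genomics 3′ version 3.1 kit, which reads messenger RNAs at their 3′ ends and marks every molecule with a unique molecular identifier (UMI) beside the barcode of its cell. Wildtype replicate 1 and wildtype replicate 2 each held the cells of 1 wildtype mouse. The knockout library pooled the cells of 2 mice with a conditional Tex10 knockout. Tex10 encodes a nuclear protein of ribosome assembly and transcription complexes, and its loss in spermatogenesis was the subject of the study. The labels used here give no Cre driver, no deleted exons and no ages beyond adult. Because the knockout group was 1 library, no p-value was computed, and cells were not used as replicates.

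Importins alpha are the adaptors of classical nuclear import: they bind the nuclear localization signal of a cargo in the cytoplasm, and importin beta carries the pair through the nuclear pore. RanGTP releases the cargo in the nucleus, and the exporter Cse1l returns importin alpha to the cytoplasm. The paralogs differ in which cargoes they prefer, and the testis is a tissue in which they are known to replace each other as germ cells pass from mitosis through meiosis to the reshaping of the spermatid nucleus. By sequence Kpna1 groups with Kpna6 and Kpna3 with Kpna4.

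The coding sequences of Kpna1 and Kpna6 were identical at 74.6% of aligned bases in the GENCODE M21 transcripts, and those of Kpna3 and Kpna4 at 75.6%. Kpna1 lies at chr16:35978750-36037131 on the plus strand of GRCm38. The other members lie on minus strands: Kpna2 at chr11:106988629-106999541, Kpna3 at chr14:61365211-61439874, Kpna4 at chr3:69067149-69127113, Kpna6 at chr4:129643980-129672767 and Kpnb1 at chr11:97159714-97187881. UMIs count molecules by their 3′ ends, so levels are given as UMIs per 1000000 UMIs of a cell class (CPM) without division by length, also where genes are compared. No word of 31 bases in the last 500 bases of the Kpna1, Kpna3, Kpna4, Kpna6 or Kpnb1 transcripts occurred in a transcript of another gene. For Kpna2 76.1% of that stretch was shared with other genes, Kpna2-ps and Gm10184 among them, so Kpna2 levels are uncertain. Of these copies the files held Gm10184, at 0.173 to 4.78 CPM in the germ cell classes. An antisense gene overlaps Kpna1 (Gm15564) and another overlaps Kpnb1 (Gm11583). The use of strand in counting is not given in the sources used here, so reads of a gene and its antisense partner cannot be told apart. Gm15564 stayed between 0 and 1.52 CPM in every germ cell class and library.

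RefSeq promoters were at hand for 3 of the 6 members, and they are shown because these genes followed different courses along the stages: Kpna2 and Kpna4 were highest in round spermatids and Kpnb1 in early spermatocytes. Each sequence is the 250 bases before the start site in GRCm38.p6, on the gene's own minus strand. Capitals mark the CCAAT box (CCAAT, or ATTGG where it lies on the other strand). The intervals are chr11:106999526-106999775 for Kpna2, chr3:69127093-69127342 for Kpna4 and chr11:97187893-97188142 for Kpnb1.
Kpna2: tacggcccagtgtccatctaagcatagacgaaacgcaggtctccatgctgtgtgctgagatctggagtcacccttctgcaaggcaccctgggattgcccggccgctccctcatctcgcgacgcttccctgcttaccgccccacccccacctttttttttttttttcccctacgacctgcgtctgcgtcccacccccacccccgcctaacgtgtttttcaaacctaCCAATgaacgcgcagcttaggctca
Kpna4: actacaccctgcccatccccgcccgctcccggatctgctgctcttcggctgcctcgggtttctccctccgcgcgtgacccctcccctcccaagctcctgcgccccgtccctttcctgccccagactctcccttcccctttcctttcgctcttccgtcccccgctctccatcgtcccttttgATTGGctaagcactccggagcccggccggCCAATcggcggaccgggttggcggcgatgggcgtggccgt
Kpnb1: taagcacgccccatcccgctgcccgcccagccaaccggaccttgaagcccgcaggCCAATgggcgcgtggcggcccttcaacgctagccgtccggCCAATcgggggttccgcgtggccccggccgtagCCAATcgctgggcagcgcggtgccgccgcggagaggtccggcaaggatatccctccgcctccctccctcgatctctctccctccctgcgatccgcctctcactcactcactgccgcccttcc
Kpna2 held 1 CCAAT box, Kpna4 held 2 and Kpnb1 held 3. At least 1 was found in 33.8% of 32851 promoters of the same length, at least 2 in 10.1% and at least 3 in 2.79%. The GC box GGGCGG, also searched on both strands, was found 1 time before Kpna2, 1 time before Kpna4 and 2 times before Kpnb1, and 32.7% of promoters held it. The MYB core AACNG was found in the Kpnb1 promoter alone of the 3, and 74.2% of promoters held it. These matches describe the letters of the windows and show no binding.

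The count tables held 9967, 10153 and 12918 barcodes for wildtype replicates 1 and 2 and the knockout library, with 93418341, 96001773 and 147783171 UMIs. Any pair of libraries shared 27 to 30 barcodes. After filtering, 54.3%, 39.5% and 63.6% of the kept barcodes lay in low-UMI clusters, which were kept out of the classes. Cells were clustered without the members or other transport genes and named from marker genes, as spermatogonia-like, early and late spermatocyte-like, round spermatid-like, elongating spermatid-like and somatic groups, called by the plain names here. Each germ cell class held 225 to 1994 cells per library. Tex10 itself differed by less than 2-fold between the groups in every germ cell class, for example 26.2, 26.3 and 18.9 CPM in round spermatids. A 3′ count does not show whether exons upstream are missing, so this does not check the genotype.

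The wildtype libraries showed a succession of importins alpha. Kpna3 was the most abundant in spermatogonia and in early spermatocytes, Kpna4 in late spermatocytes and round spermatids, and Kpna4 and Kpna1 together in elongating spermatids. The sum of the importins alpha was 266 ± 7.42 CPM (SD, n = 2) in wildtype spermatogonia and 352 ± 14.9 in early spermatocytes. It was 199 ± 3.88 CPM in late spermatocytes, 374 ± 9.17 in round spermatids and 95.1 ± 0.304 in elongating spermatids. This sum was therefore at its highest in round spermatids and early spermatocytes and at its lowest in elongating spermatids.

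**Figure D1:**
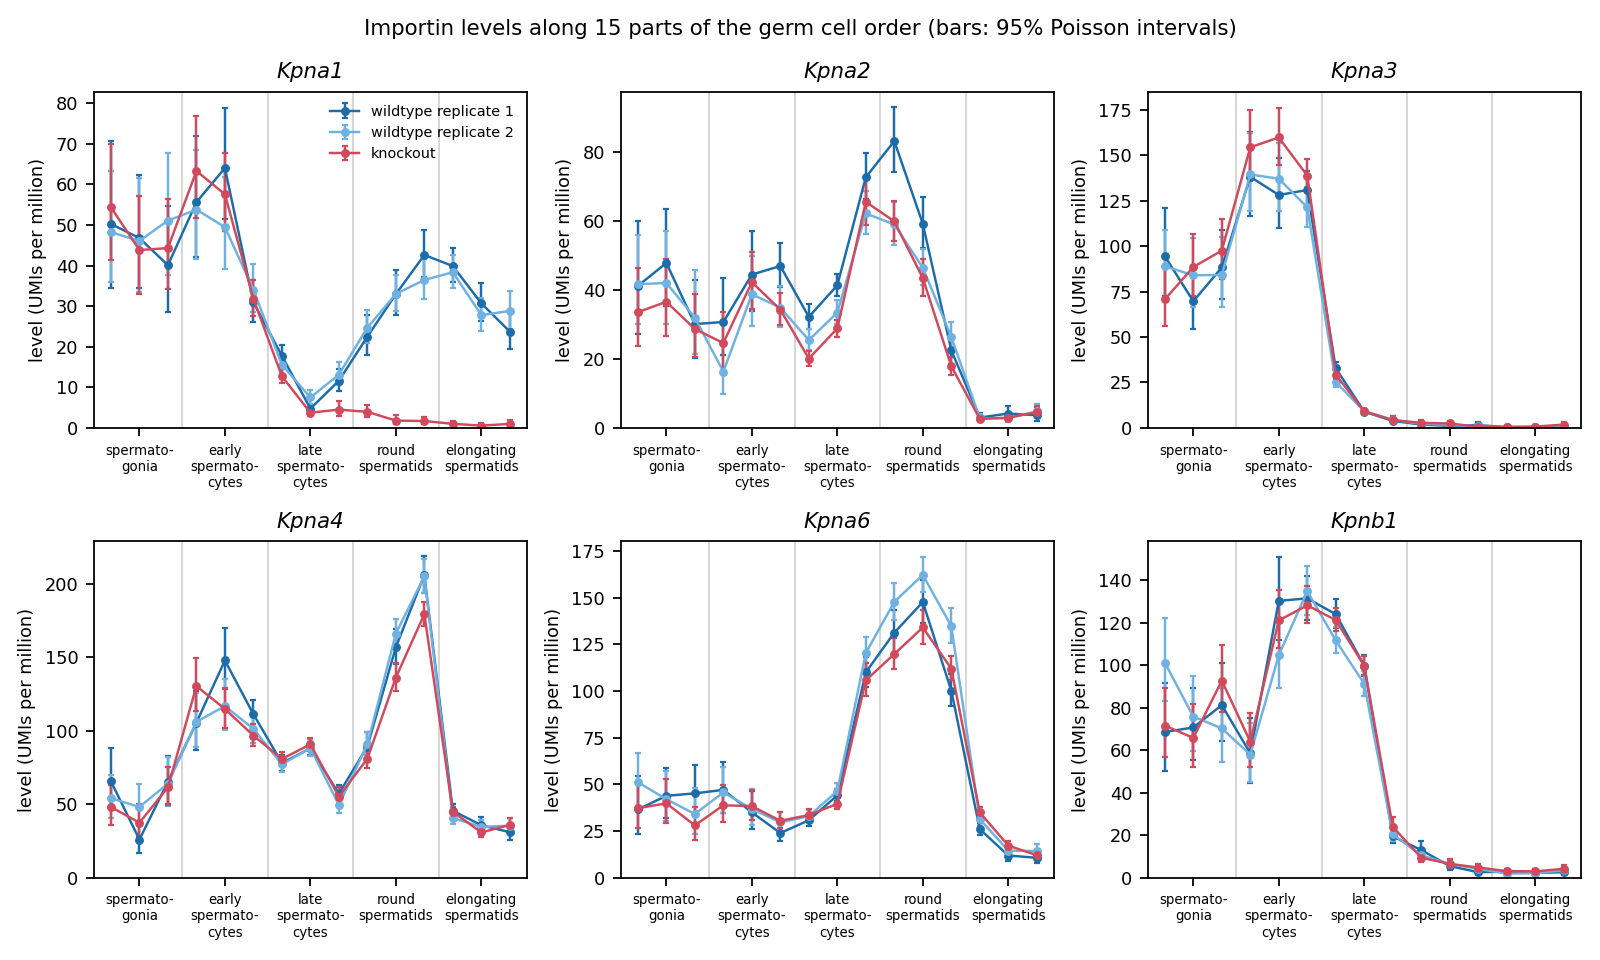
Level of each member (CPM, linear axis from 0) along 15 parts of the germ cell order, 3 parts of equal cell number per class, in wildtype replicate 1 (dark blue), wildtype replicate 2 (light blue) and the knockout library (red); bars are 95% Poisson intervals of the summed UMIs. The knockout line stays near both wildtype lines in 5 of the 6 panels, while Kpna1 in the wildtype libraries falls to 4.77 and 7.51 CPM in the eighth part and is at 42.6 and 36.5 CPM in the twelfth, where the knockout library is at 1.70 CPM.

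Kpna3 had the highest level of the importins alpha in spermatogonia and early spermatocytes. Its level was 82.7, 85.8 and 86.8 CPM in spermatogonia of wildtype replicates 1 and 2 and the knockout library, 31.8%, 31.7% and 34.6% of the importin alpha UMIs. It was 131, 128 and 146 CPM in early spermatocytes, where it held 36.2%, 37.5% and 40.2% of the importin alpha UMIs and Kpna4 came next with 32.3%, 30.9% and 29.2%. Kpna3 then dropped to 15.3, 14.5 and 16.4 CPM in late spermatocytes and to 1.52, 1.61 and 1.77 CPM in round spermatids. In elongating spermatids it was 0.426, 0.375 and 0.893 CPM, and the wildtype mean in early spermatocytes was 324-fold above that in elongating spermatids. Every step between neighbouring classes was larger than the counting error in all 3 libraries, whose 95% Poisson intervals did not overlap across a step.

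Kpna4, the closest relative of Kpna3, had 2 maxima. It rose from 50.4, 55.2 and 49.7 CPM in spermatogonia to 117, 106 and 106 CPM in early spermatocytes. After 78.9, 75.1 and 82.1 CPM in late spermatocytes it reached 157, 155 and 139 CPM in round spermatids. In elongating spermatids it was 39.2, 37.3 and 38.1 CPM. Along the 15 parts the highest wildtype mean, 205 CPM, fell in the last of the 3 parts of the round spermatids. Its share of the importin alpha UMIs in elongating spermatids was 41.3% and 39.2% in the wildtype libraries.

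Kpna6 rose late. Its level was 42.5, 42.7 and 34.4 CPM in spermatogonia and 29.3, 34.2 and 33.5 CPM in early spermatocytes, a step whose intervals overlapped in wildtype replicate 2 and in the knockout library. It was 52.6, 57.7 and 45.9 CPM in late spermatocytes and 124, 149 and 120 CPM in round spermatids. In elongating spermatids it fell to 18.2, 21.7 and 24.1 CPM. Kpna6 held 33.8% and 39.1% of the importin alpha UMIs in wildtype round spermatids, next to 42.6% and 40.7% for Kpna4.

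Kpna2 changed least before the spermatid stages. It was 39.5, 38.7 and 32.6 CPM in spermatogonia, 44.1, 32.4 and 34.7 CPM in early spermatocytes and 44.5, 36.7 and 30.2 CPM in late spermatocytes. The intervals of neighbouring classes overlapped in every library up to that stage. In round spermatids Kpna2 was 51.6, 43.9 and 36.9 CPM, and in elongating spermatids 3.51, 3.33 and 3.14 CPM. Along the parts its wildtype mean was highest, 71.0 CPM, in the first part of the round spermatids and lowest, 2.92 CPM, in the first part of the elongating spermatids. Its share of the importin alpha UMIs was 15.2% and 14.3% in wildtype spermatogonia, 22.1% and 18.7% in late spermatocytes and 3.70% and 3.49% in elongating spermatids. The rise from spermatogonia to late spermatocytes was 5.68 percentage points on the wildtype mean. It depended on the choice of cells: it was 10.2 percentage points with at most 5% mitochondrial UMIs per cell and 2.95 with the last late spermatocyte cluster counted as round spermatids, an alternative chosen after seeing the data.

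Kpnb1, the carrier shared by all importins alpha, did not follow the late paralogs. It was 74.1, 83.1 and 77.8 CPM in spermatogonia, 121, 114 and 117 CPM in early spermatocytes and 91.8, 83.3 and 98.1 CPM in late spermatocytes. In round spermatids it was 6.45, 6.93 and 6.54 CPM, while Kpna4 and Kpna6 were at their highest there. In elongating spermatids it was 2.55, 2.30 and 3.23 CPM. The number of importin alpha UMIs per Kpnb1 UMI was 2.19 and 2.35 in wildtype late spermatocytes and 57.1 and 55.0 in wildtype round spermatids. In the knockout library these ratios were 1.85 and 45.8. The change of ratio between the stages was thus present in all 3 libraries.

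Kpna1 had a course with a gap in meiosis. Its wildtype level was 45.1 and 48.4 CPM in spermatogonia and 40.9 and 41.3 CPM in early spermatocytes. It fell to 10.1 and 12.0 CPM in late spermatocytes and returned to 33.7 and 31.5 CPM in round spermatids and 33.5 and 32.6 CPM in elongating spermatids. The step from late spermatocytes to round spermatids was 1.49 ± 0.226 (SD, n = 2) on the log2 scale with 1 CPM added. Because the other paralogs fell at the end, the share of Kpna1 rose from 9.17% and 8.28% of the importin alpha UMIs in wildtype round spermatids to 35.3% and 34.2% in elongating spermatids.

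**Figure D2:**
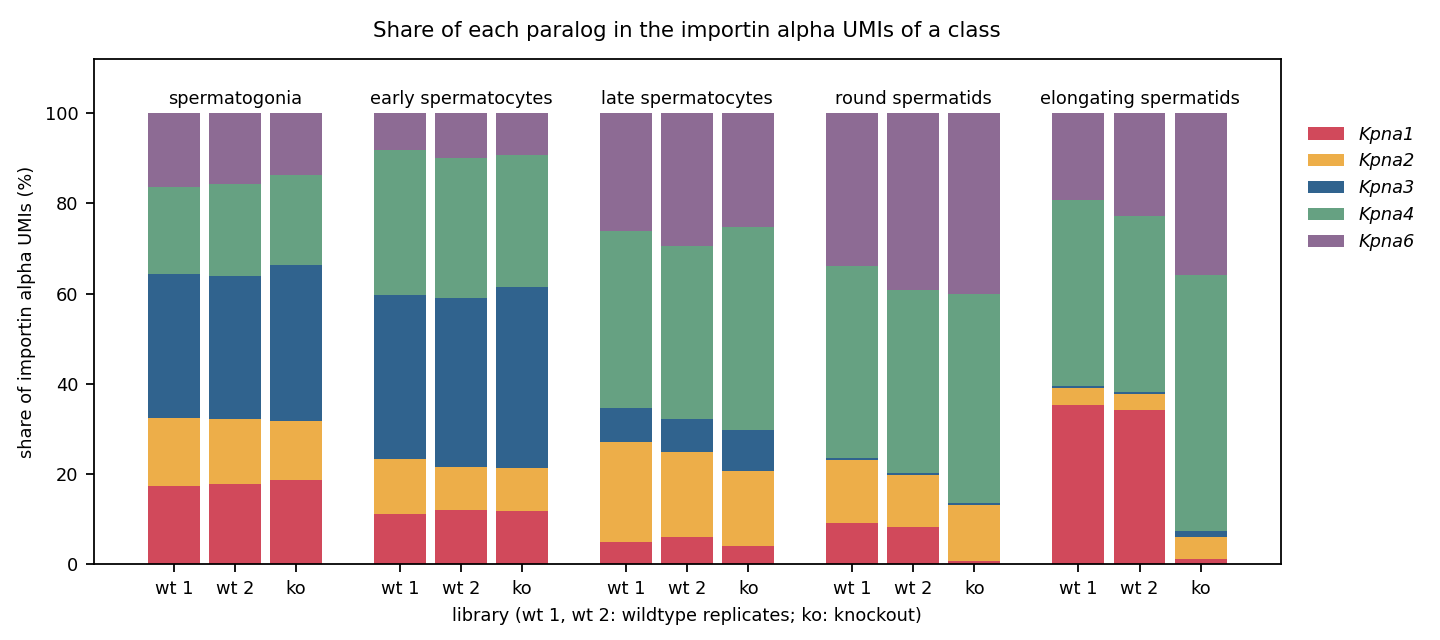
Share of each paralog in the importin alpha UMIs (%) of the 5 germ cell classes, as stacked bars for wildtype replicate 1 (wt 1), wildtype replicate 2 (wt 2) and the knockout library (ko). Kpna3 holds over 30% in the first 2 classes, Kpna4 leads from late spermatocytes, and the Kpna1 part of the elongating spermatid bars is 35.3% and 34.2% for wildtype and 1.29% for knockout.

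The knockout library was set against the wildtype libraries by a size rule over all genes. It asked for a log2 ratio (1 CPM added) of 1 or more, or of −1 or less, against both wildtype replicates. The weaker of these ratios had to be 2 or more times the distance of the wildtype replicates from each other on that scale, and only genes that reached 20 CPM in a library of the class were tested. Of the 6 members, 6 were tested in spermatogonia, 6 in early spermatocytes and 4 in late spermatocytes. None of them passed in these classes, where 0.366%, 0.247% and 0.767% of all tested genes did. In round spermatids 1 of 4 members tested passed, beside 1.15% of all tested genes in either direction and 0.647% lower in the knockout library. In elongating spermatids 1 of 3 passed, beside 1.38% in either direction and 0.597% lower. Both passes were Kpna1, lower in the knockout library, in the contrast from which the members were chosen, so nothing is read from these counts. Kpna3 and Kpnb1 were under 20 CPM in round and elongating spermatids, and Kpna2 in elongating spermatids, so the rule did not test them there.

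Kpna1 was at wildtype levels in the knockout library before late meiosis and far below them in its spermatids. In spermatogonia the knockout level was 47.1 CPM and in early spermatocytes 42.7 CPM, both within the 95% intervals of the wildtype levels. In late spermatocytes it was 7.39 CPM (95% Poisson interval 6.57 to 8.28), below 10.1 (9.05 to 11.2) and 12.0 (10.7 to 13.3) CPM. In round spermatids 57 UMIs gave 2.41 CPM (1.82 to 3.12), against 445 and 587 UMIs, or 33.7 and 31.5 CPM, in the wildtype libraries. In elongating spermatids 30 UMIs in 1800 cells gave 0.864 CPM (0.583 to 1.23), against 629 UMIs in 1472 cells and 696 UMIs in 1994 cells. These intervals cover counting error only.

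The knockout levels in both spermatid classes lay far below both wildtype libraries, which differed little from each other. The log2 ratio was −3.35 and −3.26 against the wildtype libraries in round spermatids and −4.21 and −4.17 in elongating spermatids. Knockout Kpna1 amounted to 7.38% of the wildtype mean in round spermatids and 2.61% in elongating spermatids. Of 5565 genes tested in round spermatids 2 had a lower ratio than Kpna1, and of 3183 in elongating spermatids 1 had. Kpna1 was chosen for its fall in this contrast, so these ranks only describe its size. Each knockout spermatid cluster was low: Kpna1 was between 0.398 and 3.22 CPM in the 7 spermatid clusters, where the wildtype libraries were between 16.2 and 42.0 CPM.

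**Figure D3:**
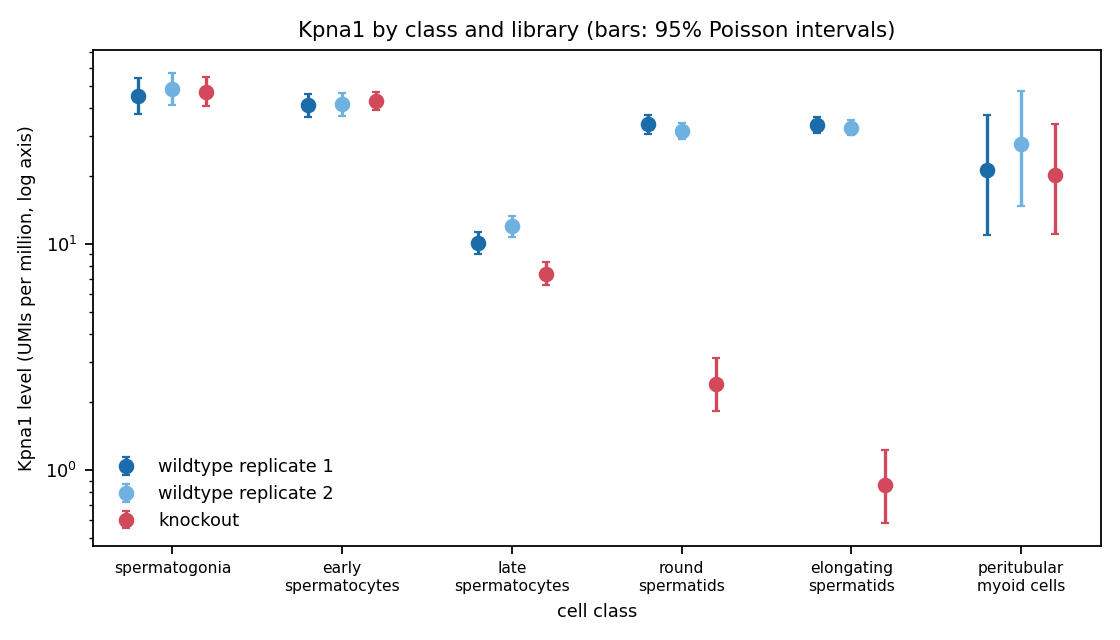
Kpna1 level (CPM, log axis) in the 5 germ cell classes and in peritubular myoid cells; points are libraries, dark blue and light blue for the wildtype replicates and red for knockout, and bars are 95% Poisson intervals. The knockout point overlaps the wildtype points in spermatogonia, early spermatocytes and myoid cells, lies lower at 7.39 CPM in late spermatocytes, and is at 2.41 and 0.864 CPM in the spermatid classes.

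Along the 15 parts the knockout library lay below both wildtype libraries from the seventh part, the first of the late spermatocytes, and the distance was wider from the ninth. The Kpna1 log2 ratios were −0.45 and −0.27 in the seventh part, −0.27 and −0.84 in the eighth and −1.20 and −1.36 in the ninth. Kpna1 was under 20 CPM in these parts, so the size rule did not test it there. In the eighth part, the middle of the late spermatocytes, the wildtype libraries held Kpna1 at 4.77 and 7.51 CPM and the knockout library at 3.77 CPM. In the ninth part the wildtype libraries had risen to 11.6 and 13.1 CPM and the knockout library was at 4.51 CPM. In the twelfth part, at the end of the round spermatids, they were at 42.6 and 36.5 CPM and the knockout library at 1.70 CPM. From the eighth to the ninth part the knockout levels had overlapping 95% Poisson intervals (2.95 to 4.75 and 2.89 to 6.72 CPM), and at the end of the round spermatids the knockout level was lower than in either. The late spermatocyte class was not of the same composition in all libraries: its last cluster held 277, 329 and 166 cells, and the summed level of the 15 round spermatid markers in the class was 759, 875 and 577 CPM. The part of this in the late spermatocyte ratio was not tested. Within that last cluster Kpna1 was at 10.4, 12.6 and 4.27 CPM.

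The few Kpna1 UMIs of knockout spermatids were set beside those of genes that are active in early meiosis. Its knockout level in elongating spermatids was 2.02% of that in early spermatocytes, while it was 81.9% and 79.0% in the wildtype libraries. For the meiotic chromosome genes Sycp1, Sycp3 and Hormad1 this value was 0.231%, 0.334% and 0.357% in the knockout library. For Kpna3 it was 0.611% there, beside 0.324% and 0.292% in the wildtype libraries. For Kpnb1 it was 2.76%, beside 2.12% and 2.02%. The 30 UMIs lay in 30 different cells. In the low-UMI clusters that carried round spermatid markers, which were outside the classes, Kpna1 was at 58.5, 62.0 and 1.74 CPM in 1459, 1002 and 1449 barcodes. Gm15564, the antisense gene across Kpna1, was at 0.692, 1.08 and 0.144 CPM in elongating spermatids, from 13, 23 and 5 UMIs.

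The other paralogs did not pass the size rule in spermatids. In round spermatids the log2 ratios to the wildtype mean were −0.36 for Kpna2, −0.16 for Kpna4 and −0.19 for Kpna6. Kpna4 was lower than in both wildtype libraries, with an interval of 134 to 144 CPM against 150.0 to 164 and 149 to 161 CPM. Kpna6 at 120 CPM was below wildtype replicate 2 (143 to 155 CPM) but within the interval of wildtype replicate 1 (118 to 131 CPM). In elongating spermatids Kpna4 had a log2 ratio of −0.01. Kpna6, the closest relative of Kpna1, had one of 0.26, with 24.1 CPM (22.5 to 25.8) against 18.2 (16.4 to 20.3) and 21.7 (19.7 to 23.7) CPM. With the 5 clusters of the class weighted equally in all libraries the log2 ratio of Kpna6 was −0.24 and that of Kpna4 −0.22. In that setting a cluster of 20, 10 and 56 cells, with 9, 3 and 23 Kpna6 UMIs, counts as much as the others, and its knockout level was 40.2% of the wildtype mean for Kpna6 and 53.5% for Kpna4. In the other 4 clusters knockout Kpna6 was at 104% to 120.0% of the wildtype mean, and Kpna4 at 92.8% to 104%.

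Summed over Kpna2, Kpna3, Kpna4 and Kpna6, the importins alpha other than Kpna1 were at 334, 349 and 298 CPM in round spermatids. In elongating spermatids they were at 61.4, 62.7 and 66.3 CPM, 107% of the wildtype mean in the knockout library. With Kpna1 the family sum in elongating spermatids was 94.8, 95.3 and 67.1 CPM, or 70.6% of the wildtype mean in the knockout library. In round spermatids the family sum of the knockout library was 80.1% of the wildtype mean. The missing Kpna1 UMIs were therefore not matched by UMIs of the other paralogs. The shares shifted with them: in elongating spermatids of the knockout library Kpna4 held 56.8% and Kpna6 36.0% of the importin alpha UMIs.

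**Figure D4:**
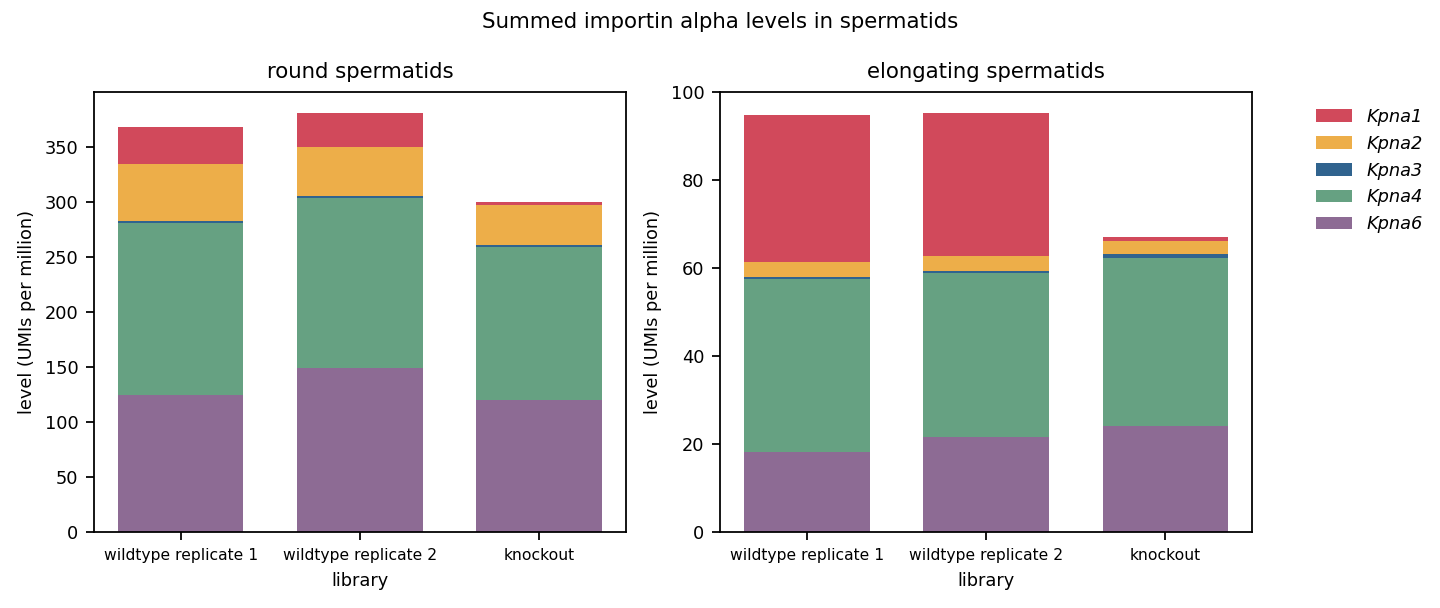
Summed importin alpha level (CPM, linear axis from 0) in round and elongating spermatids of each library, stacked by paralog with Kpna1 on top. The elongating spermatid bars reach 94.8, 95.3 and 67.1 CPM, and the part below Kpna1 is 61.4, 62.7 and 66.3 CPM.

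Outside Kpna1, 19 of 25 pairs of a member and a germ cell class were tested and 0 passed the size rule. Per class 0.247% to 1.38% of all tested genes passed, so a count of 0 is near the background. The log2 ratios of these pairs to the wildtype mean lay between −0.41, for Kpna2 in late spermatocytes, and 0.26, for Kpna6 in elongating spermatids. Kpna2 was lower than both wildtype libraries in 4 of its 5 classes, at 32.6, 30.2 and 36.9 CPM in spermatogonia, late spermatocytes and round spermatids, the early spermatocytes being the exception. Kpna3 and Kpnb1 had ratios near 0 where they were abundant, 0.17 and −0.01 in early spermatocytes. In peritubular myoid cells, the muscle-like cells around the tubules, 5 members were tested and 0 passed, beside 3.94% of all tested genes. Kpna1 there was at 21.2, 27.5 and 20.2 CPM from 12, 13 and 14 UMIs, with intervals that overlapped.

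Other genes of nuclear transport were taken from a list of 58, of which the files held 56: the Ran cycle, importins, exportins and nuclear pore proteins, with the further importin alpha Kpna7. The list had 52, 51, 37, 27 and 15 genes tested from spermatogonia to elongating spermatids, and 0 passed the size rule in any of these classes. Of all tested genes 0.366%, 0.247%, 0.767%, 1.15% and 1.38% passed there, so these counts of 0 are near the background. The median log2 ratios of the list were −0.06, −0.00, 0.04, 0.00 and 0.08, beside −0.01, 0.02, 0.01, −0.02 and 0.06 over all tested genes. The widest ratio was that of Nup98, a nuclear pore protein, with 45.7, 40.3 and 79.5 CPM in elongating spermatids and a log2 ratio of 0.87. Nup35, another pore protein, had the lowest ratio in that class, −0.43, with 249, 253 and 186 CPM.

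In the wildtype libraries most of the transport list was highest before the spermatid stages, and so were most of all genes. Of 53 list genes at 20 CPM or more in a class, 20 had their highest level in spermatogonia and 19 in early spermatocytes. These are 37.7% and 35.8% of the list, beside 32.9% and 20.3% of 10013 genes in all. In late spermatocytes 8 were highest, 15.1% beside 19.0% of all genes. In round spermatids 2 were highest, Nup50 and Nup160, 3.77% beside 18.6%. In elongating spermatids 4 were highest, Rangap1, Rcc1, Ipo5 and Nup35, 7.55% beside 9.30%. Together with Kpna2, Kpna4 and Kpna6 these were the members and list genes with their highest class after meiosis.

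The genes of the Ran cycle are named for their role and not for their values. Rcc1, the exchange factor that charges Ran with GTP in the nucleus, rose from 118 and 93.5 CPM in wildtype round spermatids to 582 and 582 CPM in elongating spermatids and was at 520.0 CPM there in the knockout library. Rangap1, which triggers GTP hydrolysis in the cytoplasm, was at 382, 402 and 414 CPM in elongating spermatids. Ran was highest in late spermatocytes at 1896, 1825 and 1785 CPM. Cse1l, the exporter of importin alpha, fell from 108, 115 and 119 CPM in spermatogonia to 3.51, 2.72 and 3.46 CPM in elongating spermatids. Cse1l thus followed Kpnb1 and Kpna3 downward, while Rcc1 and Rangap1 rose. Kpna7, known from oocytes and the early embryo, was at most 14.0, 13.4 and 13.9 CPM, in late spermatocytes. In round spermatids Kpna7 was at 2.81, 3.28 and 4.94 CPM.

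**Figure D5:**
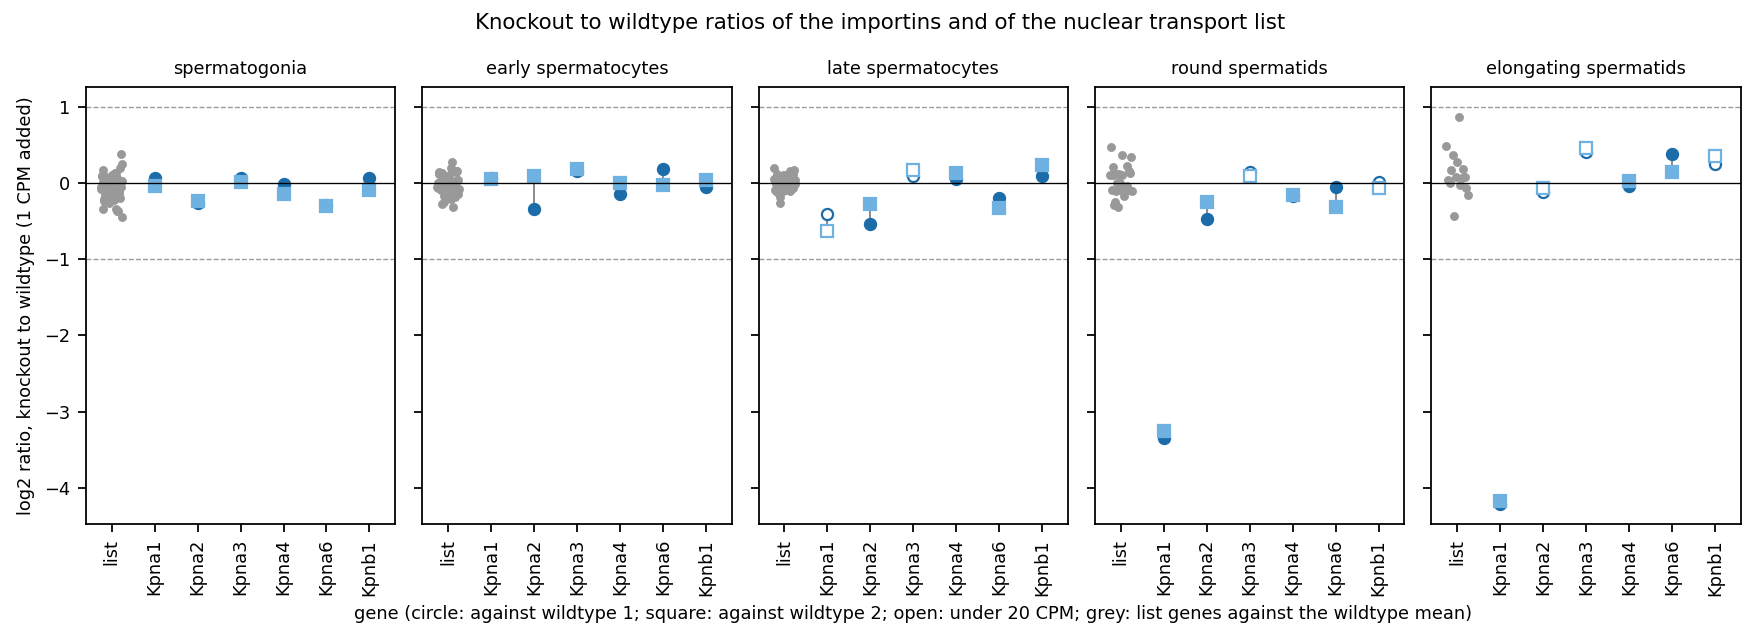
Log2 ratio of the knockout library to wildtype, with 1 CPM added, in 5 panels for the germ cell classes; circles and squares are each member against wildtype replicate 1 and wildtype replicate 2, open where no library reached 20 CPM, grey points are the tested genes of the transport list against the wildtype mean, and dashed lines mark 1 and −1. Kpna1 alone lies beyond the dashed lines, at −3.35 and −3.26 in round spermatids and −4.21 and −4.17 in elongating spermatids.

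Genes near each member on its chromosome were counted by the same rule. Of 56 genes whose start lay within 2 Mb of Kpna1, 13, 16, 9, 5 and 2 were tested from spermatogonia to elongating spermatids, and 0 passed. With 5 and 2 genes tested in the spermatid classes, where 1.15% and 1.38% of all tested genes passed, a count of 0 is near the background. Around Kpna2, Kpna3 and Kpna4 0 genes passed, of 10 to 25, 7 to 15 and 3 to 8 tested per class, which is also near the background. Within 2 Mb of Kpna6, the collagen gene Col16a1 (chr4:130047840-130099283) was lower in early spermatocytes, round spermatids and elongating spermatids. In elongating spermatids it was at 583, 508 and 2.88 CPM. There 2 of 14 tested genes near Kpna6 passed (14.3%, beside 1.38% of all tested genes), while 1 of 24 passed in early spermatocytes (4.17%, beside 0.247%) and 1 of 19 in round spermatids (5.26%, beside 1.15%). In the same window the antisense gene Gm12970 was at 0, 0 and 130 CPM in elongating spermatids, at least 1746-fold higher against a floor of 3 UMIs over both wildtype libraries. The passes on chromosome 4 were not limited to this window. Over the whole chromosome 14 of 211 tested genes passed in elongating spermatids and 18 of 364 in round spermatids. In early spermatocytes 3 of 444 passed, beside 0.247% of all tested genes. In late spermatocytes 14 of 384 passed, beside 0.767%, where 0 of 23 near Kpna6 did. Chromosome 4 was not alone in this. On chromosome 14, which holds Kpna3, 3 of 252, 10 of 217, 9 of 238 and 3 of 132 passed from early spermatocytes to elongating spermatids. Near Kpnb1, Phb, which encodes the mitochondrial protein prohibitin, was at 27.4, 24.3 and 10.2 CPM in round spermatids. It was the 1 of 25 tested genes there that passed (4%, beside 1.15% of all tested genes). Kpna6 and Kpnb1 themselves did not pass the rule.

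Genes with the most similar courses were sought over 30 points, the 15 parts in both wildtype libraries, among 11372 genes that reached 20 CPM in a part. The points share libraries and neighbouring stages, so Pearson's r of log2(CPM + 1) is a description. For Kpna1 the highest values were 0.91 for Spire1, an actin nucleator, 0.90 for March8, a membrane ubiquitin ligase, and 0.90 for Map3k7, a signalling kinase. For Kpna3 they were 0.99 for Ythdc2, an RNA helicase required in meiosis, and 0.99 for Cpsf7 and Ibtk. For Kpnb1 they were 0.99 for Ssna1, Rpl9 and Srrt, and Kpna3 and Kpnb1 correlated with each other at 0.91. Kpna2 came closest to Mrpl32, Prkar1a and Tbc1d15 at 0.97. Kpna6 came closest to Clasrp at 0.96, and to Ppp2r2d and Gm36445 at 0.95. Kpna4 had the least similar partners, Pigf at 0.86, Cpeb2 at 0.85 and AW554918 at 0.84. None of these genes passed the size rule where they were tested, in 65 of 90 pairs of a gene and a germ cell class. With 0.247% to 1.38% of all tested genes passing per class, this is near the background. In both spermatid classes March8 and Map3k7 were tested. Spire1 was under 20 CPM there and not tested, at 18.2, 17.2 and 15.6 CPM in round spermatids and 16.8, 19.8 and 17.4 CPM in elongating spermatids. Ibtk, a companion of Kpna3, was not tested in round spermatids, where it was at 0.682, 0.698 and 5.02 CPM.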

How the data were processed

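The deposited files hold raw UMI counts per gene and barcode of 1 matrix per library, made with Cell Ranger 4.0.0 as the file headers say; the submitters' processing notes also name Seurat 4.0.5 and mm10. Use of strand in counting is not given in the sources used here. Barcodes were kept with at least 1000 UMIs, 500 genes and at most 10% mitochondrial UMIs. Scrublet's automatic threshold marked 0, 1 and 0 barcodes, so the top 8% of its scores were left out per library. Counts were scaled per cell and logged, and 2000 variable genes, without members or transport genes, and 30 principal components were clustered with Leiden at resolution 1 on 15 neighbours (scanpy 1.11.5, leidenalg 0.10.2, igraph 0.11.9), without batch correction. A class name needed 3 detected markers, with no more markers of another type among its 10 leading genes. Clusters whose median UMI total was under 3 times the lowest total of their library were set aside as low-UMI. The class names were rebuilt here and may differ from the study's.

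UMIs were summed per library and class into CPM with exact 95% Poisson intervals. PCR duplicates are collapsed by UMI, and intervals cover counting error only. A class was compared where every library held 50 or more of its cells, which left out Leydig and Sertoli cells. The size rule was tried on simulated counts with known changes and counting error only. They held no variation between mice or in class composition, so they do not show how the rule handles it. Germ cells were ordered by the first diffusion component over 30 neighbours, chosen after diffusion pseudotime had placed elongating spermatids before late spermatocytes, and each class was divided into 3 parts. Gene positions and coding sequences came from GENCODE M21 on GRCm38, matched by identifier for 32158 of 32285 genes, and promoters from RefSeq on GRCm38.p6. Named genes were the members in every class, the 3 genes most like each, and genes of the transport list or within 2 Mb that passed the rule; others are said to be named for their role or as the extremes of the list. The members and lists were chosen with earlier results of these data known. Alternatives covered scaling with edgeR 4.0.16 TMM factors (in R 4.3.3), the pseudocount, the CPM filter, the threshold, either wildtype library, doublets, cell filters, clustering and class composition.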

Additional observations from a re-analysis of the deposited data

Results flagged for a closer look

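The knockout difference of Kpna1 changed its sign between classes against both wildtype libraries. Its log2 ratio to the wildtype mean, with 1 CPM added, was 0.06 in early spermatocytes, where the knockout library was higher than each wildtype library. It was −0.52 in late spermatocytes, −3.30 in round spermatids and −4.19 in elongating spermatids, where the knockout library was lower than each. The difference between the classes was not tested. The early spermatocyte levels of the 3 libraries had overlapping 95% Poisson intervals, and with the low-UMI clusters added to the class the ratio there was −0.02.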

How the results depend on the processing

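Under each of 15 alternatives 2 pairs of a member and a class passed the size rule. Both were Kpna1 in the spermatid classes, the contrast from which the members were chosen. The Kpna1 log2 ratio lay between −3.81 and −2.35 in round spermatids and between −5.10 and −2.70 in elongating spermatids, the ends nearest 0 coming with 5 CPM added. Without replicate 1 or 2 of the wildtype group it was −3.26 and −3.35 in round and −4.17 and −4.21 in elongating spermatids. These repeat the ratios to the single wildtype libraries given above and are no further check. The pairs of a class and a gene within 2 Mb of a member that passed numbered 5, with Col16a1 counted in each class where it passed. They numbered 22 without the CPM filter, 18 with a 1.5-fold threshold and 8 with at most 5% mitochondrial UMIs. Leaving out a wildtype replicate gave 6 and 5 such pairs. The difference of the Kpna2 share between late spermatocytes and spermatogonia, 5.68 percentage points, was 10.2 with at most 5% mitochondrial UMIs and 2.95 with the last late spermatocyte cluster counted as round spermatids, an alternative chosen after seeing the data; leaving out a wildtype replicate gave 4.45 and 6.92. The causes were not tested. With a 1.5-fold threshold 1 pair of a transport list gene and a class passed. The r of Kpna4 with AW554918 was 0.93 and 0.75 in single wildtype libraries. Of the other values, 774 stayed within the limit set for their kind and 183 moved beyond it. The limit was the wildtype SD for ratios and shares, a 1.5-fold change for counts and a fixed distance for r. No log2 ratio of a member crossed the size rule. Some levels rest on few UMIs, such as 8 in each wildtype library for Kpna3 in elongating spermatids. The number depends on the depth of the class as well as on the level. Kpna1 at 2.41 CPM in knockout round spermatids rests on 57 UMIs. At 30.3 CPM in Leydig cells of wildtype replicate 1 it rests on 3. No paired analysis was possible because the knockout group is a single pooled library, so the groups share fewer than 2 replicate numbers.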

Other observations

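In Sertoli cells, the supporting cells of the tubule, and Leydig cells, which make testosterone, too few cells were found for a comparison: 22, 14 and 51 Sertoli cells and 33, 57 and 97 Leydig cells in wildtype replicates 1 and 2 and the knockout library. Sertoli cells carried Kpna4 at 85.8, 76.7 and 74.9 CPM and Kpnb1 at 75.7, 89.5 and 85.1 CPM. Kpna1 in Sertoli cells was at 27.8, 17.0 and 18.9 CPM, from 11, 4 and 26 UMIs. In Leydig cells Kpna1 was at 30.3, 11.8 and 23.1 CPM, from 3, 4 and 31 UMIs. The intervals of these Kpna1 levels overlapped between all libraries within each cell type.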
